A study of Mus musculus with 24 samples.

Results

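The 9 mouse genes Kcnd1, Kcnd2, Kcnd3, Kcnip1, Kcnip2, Kcnip3, Kcnip4, Dpp6 and Dpp10 encode the pore subunits of Kv4 potassium channels and their best known partner subunits. They were chosen by gene symbol among the 18647 genes of the count table, and all 9 passed the filter on low counts that left 18153 genes. Their mRNAs were followed in microdissected hippocampal CA1 of adult C57Bl/6N mice (at least 60 days old) after status epilepticus (SE), a sustained seizure that was induced with 335 mg/kg pilocarpine. Control mice without SE (Ctr) were taken at 3 times, 12, 36 or 72 h, and SE mice at these times and also at 6 and at 24 h, which gives 8 groups of 3 libraries, or 24 libraries. All mice, controls included, were given 1 mg/kg scopolamine methyl nitrate beforehand and 4 mg/kg diazepam afterwards, and controls had saline where SE mice had pilocarpine. Only pilocarpine mice that developed SE were kept. The sources used here do not say whether a library held 1 mouse or several, so p-values measure the spread between these libraries.

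Library totals ranged from 2663936 to 30133731 counts (median 13521590), and counts were expressed as CPM, counts scaled to a common library size with TMM factors, or as RPKM, which is CPM divided by the exon length in kilobases, where genes are compared with each other. The 5 CA1 pyramidal markers had counts in every library, with summed levels of 266 to 1072 CPM against 5.29 to 230 CPM for 4 dentate granule markers and 46.5 to 239 CPM for 4 CA3 markers. The highest CA3 sum was in Ctr 12 h replicate 3 and the highest dentate sum in SE 72 h replicate 1. The 6 markers of neurons at large summed to 6447 to 8710 CPM in controls and to 6236 to 7995 CPM at 6 h after SE. They were below every control at 12 h (5199 to 5547 CPM), 24 h (4887 to 6230), 36 h (5237 to 5646) and 72 h (4479 to 4647), with 2 of the 6 called lower at 12, 36 and 72 h and 1 at 24 h, and their part in the falls of members was not tested. In bulk tissue, fewer cells of a type and less RNA per cell cannot be told apart. Markers of sensory ganglion, a tissue outside the brain, summed to over 300 CPM in 6 libraries and to at most 76.5 CPM in the other 18. One of the 6, Ctr 72 h replicate 2, stood apart from every other library on the second principal component. Numbers in the library labels fell into 3 ranges: all Ctr 72 h libraries lay between 162 and 169, all Ctr 36 h libraries between 109 and 122, and all SE 24 h libraries between 92 and 104. What these ranges stand for is not stated, so they were only used as an assumed batch.

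Kv4 channels carry the fast A-type potassium current that opens below the spike threshold and inactivates within milliseconds, and in CA1 pyramidal dendrites this current limits back-propagating action potentials and the summation of synaptic input. Native channels are assemblies of pore-forming Kv4 subunits with cytoplasmic, calcium-binding KChIP proteins, which promote surface expression and set inactivation, and with the single-pass DPP-like proteins, which speed activation and inactivation. KChIP3 is also known as DREAM or calsenilin, a calcium-regulated repressor of transcription.

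The pool of Kv4-related mRNA shifted in a recurrent pattern after SE: Kcnip2 was lower and Kcnip3 higher at 12, 24 and 36 h, Kcnip4 was lower at the same times, and Kcnd2 was lower at 12 and 36 h. A gene was called changed at a Benjamini-Hochberg adjusted p of at most 0.05 in edgeR's quasi-likelihood test with an absolute log2 fold change of at least 0.66. At 6 h after SE, 0 of 9 members rose and 1 fell against the mean of the controls, where 22% of all genes tested were called (15.8% higher and 6.21% lower). At 12 h, 2 members rose and 3 fell, where 25.2% of all genes were called (13.9% higher and 11.4% lower). At 24 h, 1 rose and 4 fell, against 24.1% of all genes (14.9% higher and 9.21% lower). At 36 h, 1 rose and 4 fell, against 21.6% (12.7% higher and 8.91% lower). At 72 h, 0 members were called by edgeR, against 19.4% of all genes (15.2% higher and 4.2% lower), although 4 had an unadjusted p under 0.05, and DESeq2 called 2 and limma-voom 1. The median log2 fold change of the 9 members was -0.33, -0.51, -0.59, -0.80 and -0.37 from the earliest to the latest time, beside 0.06, 0.01, 0.04, 0.00 and 0.10 for all genes tested. Medians of the 6 markers of neurons at large were -0.08, -0.41, -0.25, -0.36 and -0.54 at those times. For the 5 CA1 markers they were -0.20, -0.60, -0.21, -0.60 and -0.30. SE 6 h and SE 24 h had no control of their own time and were both compared with the same 9 control libraries, so these comparisons share their controls with each other and with those at 12, 36 and 72 h.

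**Figure D1:**
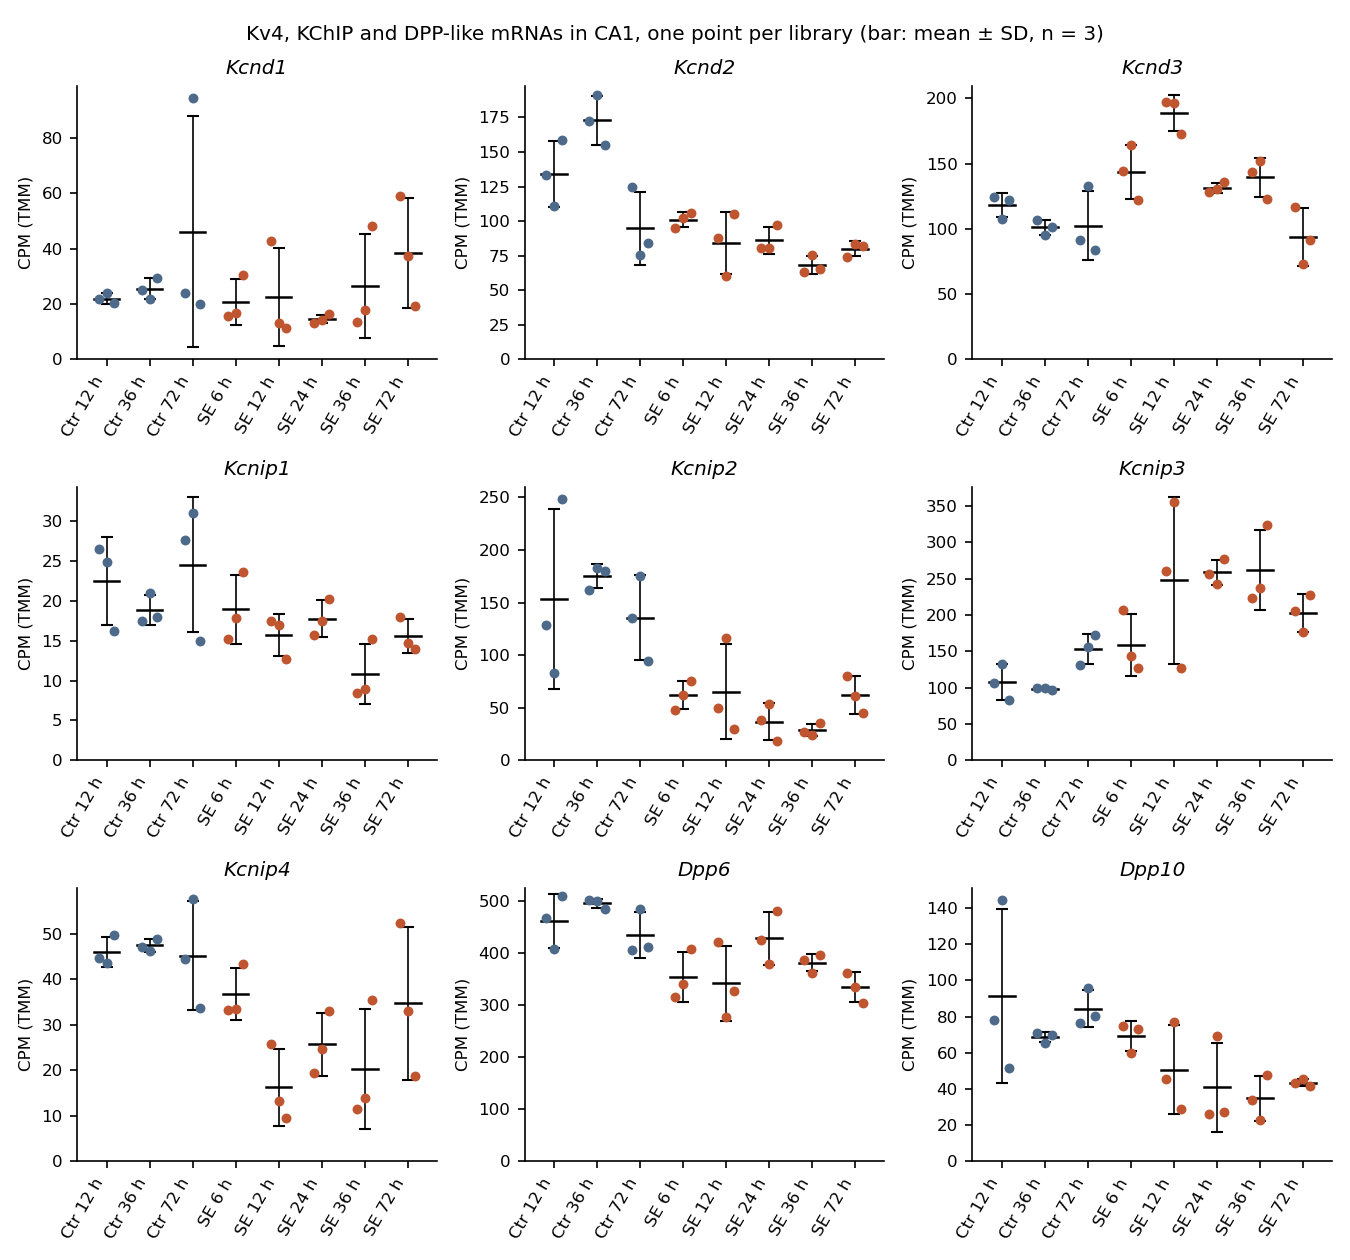
CPM (vertical axis, linear, from 0) of the 9 members in each library, by group along the horizontal axis. Points are libraries, blue for controls and orange for SE, and bars give the mean and SD of 3 libraries. All 9 SE libraries at 6, 24 and 36 h lay below all 9 controls for Kcnip2, at 18.2 to 75.3 CPM against 82.9 to 248 CPM.

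**Figure D2:**
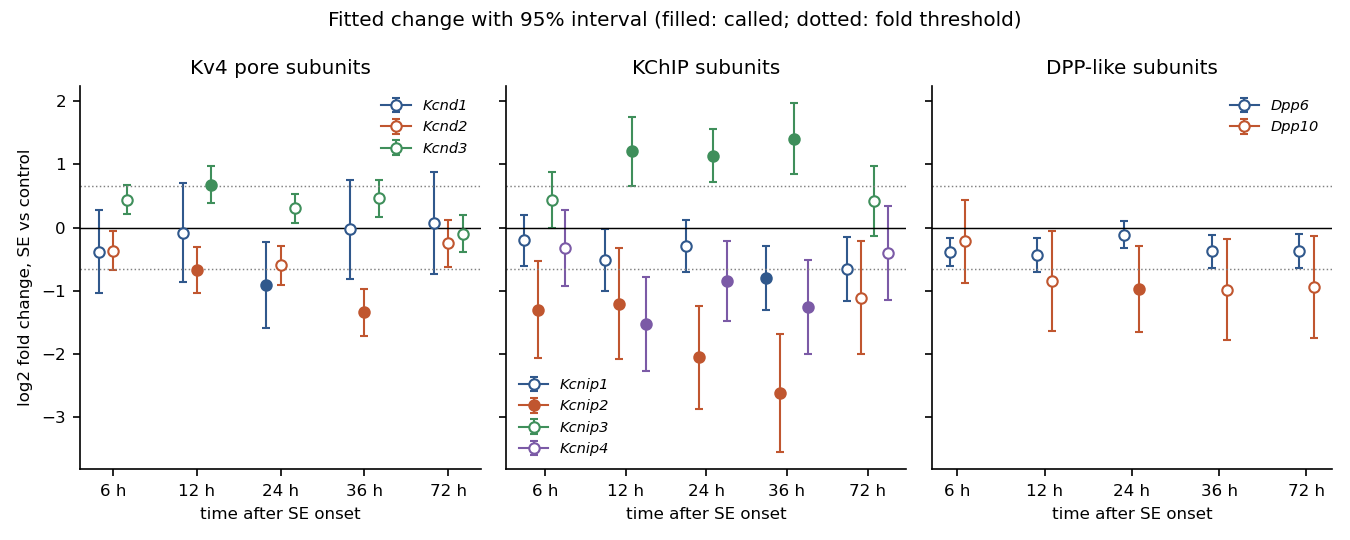
Fitted log2 fold change of SE against control (vertical axis) for each member at 5 times after SE (horizontal axis), with 95% intervals. Filled points passed the threshold and open points did not, and dotted lines mark the fold threshold of 0.66 in either direction. Kcnip2 was below 0 and Kcnip3 above 0 at every time, while at 72 h no point is filled.

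Levels in the 9 control libraries placed Kcnip2 first, with a median of 40.3 RPKM (range 20.7 to 61.9), followed by Dpp6 at 38.1 (31.9 to 40.1), Kcnip3 at 26.2 (20.5 to 42.4) and Kcnd2 at 23.01 RPKM (13.1 to 33.0). Kcnip4 had a median of 12.7 RPKM, Kcnd3 of 10.8, Kcnd1 of 4.52, Dpp10 of 3.89 and Kcnip1 of 2.16 RPKM. The ranges of all 8 pairs of neighbours in this order overlapped, so no single step in it exceeded the spread. In the 15 SE libraries the order was led by Kcnip3 at 56.1 RPKM (31.2 to 87.5), then Dpp6 at 28.5, Kcnd2 at 14.2, Kcnd3 at 13.6 and Kcnip2 at 12.0 RPKM. RPKM depends on the exon length used: with the longest transcript in place of all exons, the control median of Dpp6 was 99.4 and that of Kcnip2 51.9, which places Dpp6 first.

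Among the pore subunits, Kcnd2 encodes Kv4.2, the main carrier of the dendritic A-type current in CA1 pyramidal cells. The gene lies at 6:21214866-21729804 on the plus strand (GRCm39). At 36 h, it was at 63.5, 75.8 and 65.5 CPM after SE and at 172, 191 and 155 CPM in controls. The groups did not overlap, and Kcnd2 fell 2.54-fold (log2 fold change -1.34, standard error 0.18, edgeR adjusted p = 8.85e-06). The CA1 markers were also lower at 36 h, at 584 to 743 CPM against 982 to 1072 CPM, with 2 of 5 called lower and a median log2 fold change of -0.60, and their part in the fall was not tested. At 12 h, the SE libraries held 87.4, 60.4 and 105 CPM and the controls 133, 111 and 159 CPM. Again every SE library lay below every control, by a fitted 1.60-fold (log2 fold change -0.67, standard error 0.17, edgeR adjusted p = 0.00475), a value close to the fold threshold. It was called under 6 of 14 alternative settings, and not without Ctr 12 h replicate 3 (-0.53) or SE 12 h replicate 2 (-0.49). At 24 h, the values were 80.3, 80.7 and 97.1 CPM and the log2 fold change of -0.59 did not reach the fold threshold (edgeR adjusted p = 0.00312), and at 6 h they were 95.2, 102 and 106 CPM (log2 fold change -0.36, edgeR adjusted p = 0.0526). At 72 h, Kcnd2 was at 73.8, 83.8 and 82.1 CPM after SE and at 125, 75.7 and 84.0 CPM in controls, so the groups overlapped (log2 fold change -0.25, edgeR adjusted p = 0.317).

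Kcnd2 stayed between 60.4 and 106 CPM in all 15 SE libraries, while its control level differed between times. Its log2 fold change of SE against control was 1.09 higher at 72 h than at 36 h (standard error 0.25, edgeR adjusted p = 0.0163), 1 of 9 members in a comparison where 4.81% of all genes were called and the median of all genes was 0.13. Between SE 72 h and SE 36 h themselves the log2 difference was 0.23 (95% interval -0.14 to 0.59, edgeR adjusted p = 0.454). Between Ctr 72 h and Ctr 36 h it was -0.87 (standard error 0.18, edgeR adjusted p = 0.0176), the only member among the 1.96% of all genes called in that pair of control groups. Ctr 36 h against Ctr 12 h gave 0 members and 0% of all genes by edgeR, with 1 member at an unadjusted p under 0.05, and Ctr 72 h against Ctr 12 h gave 0 members and 0.931% of all genes, again with 1 at an unadjusted p under 0.05. Ctr 72 h and Ctr 36 h also lay in separate ranges of label numbers, so time and label range cannot be told apart there, and with the range as a factor neither difference was called (1.35 and -1.12). The difference between control groups was not called without Ctr 72 h replicate 2 (-0.71), Ctr 36 h replicate 1 (-0.87) or Ctr 36 h replicate 2 (-0.79). With a ganglion marker score in place of the RUVr factor and all libraries kept, the difference in SE effect stayed called (1.096, edgeR adjusted p = 0.0272). Leaving out the 6 libraries of high ganglion level left 1 SE library at 72 h, which is assumed to vary like the other groups, and gave 0.95 without a call. CA1 marker sums moved in the same order, at 982 to 1072 CPM in Ctr 36 h, 527 to 714 in Ctr 12 h and 358 to 655 in Ctr 72 h, and their part in the result was not tested.

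Kcnd3 encodes Kv4.3, which in hippocampus is known chiefly from interneurons and dentate granule cells. At 12 h, it was at 197, 197 and 172 CPM after SE and at 125, 108 and 122 CPM in controls. No SE library overlapped a control, and Kcnd3 rose 1.60-fold (log2 fold change 0.68, standard error 0.14, edgeR adjusted p = 0.000754), a call lost without Ctr 12 h replicate 2, SE 12 h replicate 1 or SE 12 h replicate 2 (0.65 each), where only the fold threshold was missed. At 36 h, the values were 143, 152 and 123 CPM against 107, 95.5 and 102 CPM, a difference in the same direction under the fold threshold (log2 fold change 0.46, edgeR adjusted p = 0.0145). At 72 h, the libraries overlapped at 117, 73.2 and 91.2 CPM against 91.2, 133 and 83.6 CPM. The SE effect at 72 h minus that at 12 h was -0.78 on the log2 scale (standard error 0.20, edgeR adjusted p = 0.00895), in a comparison where 18.6% of all genes were called and the median of all genes was 0.15. This difference was not called when Ctr 72 h replicate 2 (-0.58) or SE 72 h replicate 2 (-0.62) was left out, nor without the 6 libraries of high ganglion level (-0.59), which leaves 1 SE library at 72 h. With the ganglion score and all libraries it was called (-0.796, edgeR adjusted p = 0.0249), but not with label range as a factor (-0.89, edgeR adjusted p = 0.0693). Interneuron markers summed to 943 to 1392 CPM at 12 h after SE and to 721 to 858 CPM in the matching controls. Of the 7 markers, 1 was called higher at 12 h, and the median log2 fold change of the list was 0.26. Dentate granule markers summed to 16.4 to 93.4 CPM at 12 h after SE and to 33.8 to 94.6 CPM in controls, with a median of -0.16. At 36 h they summed to 20.5 to 90.9 CPM against 13.7 to 20.4 CPM, with a median of 1.93. Of the 4 dentate markers, 0 were called at 12 h and 0 at 36 h. The part of either set of markers in the rise of Kcnd3 was not tested. Kcnd3 shares 585 bp of exon with the antisense gene Kcnd3os, and since counting ignored strand, reads of the 2 genes cannot be told apart where they overlap.

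Kcnd1 encodes Kv4.1, the least abundant pore subunit in controls. Its values after SE were 13.3, 14.1 and 16.3 CPM at 24 h, all below the lowest control of 19.9 CPM, and it was called lower than the mean of controls (log2 fold change -0.91, standard error 0.33, edgeR adjusted p = 0.0325), a call lost without Ctr 72 h replicate 2 (-0.66) and without each SE 24 h library in turn (-0.85, -0.88 and -0.99). With all libraries kept, it was also lost without the RUVr factor (edgeR adjusted p = 0.108), with limma-voom (adjusted p = 0.0723) and with label range as a factor (edgeR adjusted p = 0.423). At 12 h, it was at 42.8, 13.3 and 11.4 CPM after SE and at 21.7, 23.9 and 20.2 CPM in controls. One SE library was above and the others were below every control. At 36 h, the SE values of 13.3, 17.97 and 48.0 CPM surrounded the controls at 25.1, 21.9 and 29.5 CPM in the same way. The 6 libraries with the highest Kcnd1 were the 6 with over 300 CPM of ganglion markers, at 30.4, 37.3, 42.8, 48.0, 59.05 and 94.3 CPM. In the other 18 libraries Kcnd1 did not exceed 29.5 CPM and the 8 ganglion markers summed to 5.97 to 76.5 CPM, with at most 1 of the 8 at 0. Leaving out these 6 libraries, which removes the 6 highest Kcnd1 values, gave calls at 12 h (log2 fold change -0.82), 36 h (-0.70) and 24 h (-0.68). With the ganglion score and all libraries, Kcnd1 was called lower at 12 h (-0.83) and 24 h (-0.76) but not at 36 h (-0.39, edgeR adjusted p = 0.235).

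**Figure D3:**
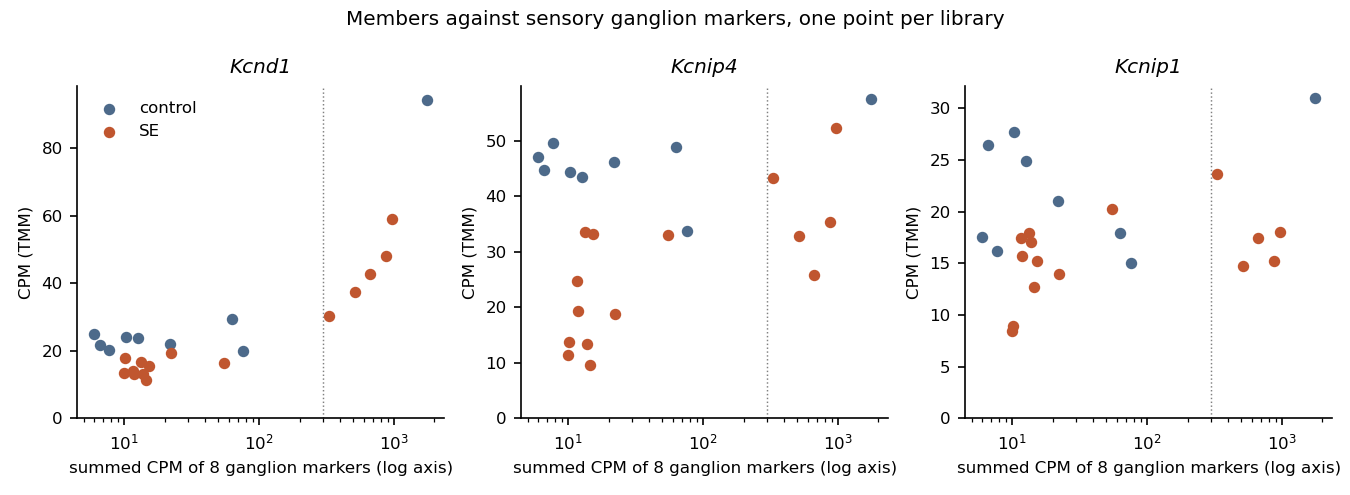
CPM of Kcnd1, Kcnip4 and Kcnip1 (vertical axes, linear, from 0) against the summed CPM of 8 sensory ganglion markers (horizontal axes, log scale), 1 point per library, blue for controls and orange for SE. The dotted line marks 300 CPM, and the 6 libraries to its right hold the 6 highest Kcnd1 values, from 30.4 to 94.3 CPM.

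Among the KChIPs, Kcnip2 encodes KChIP2, a subunit that raises the surface density of Kv4.2. The gene lies at 19:45780278-45804836 on the minus strand (GRCm39). At 36 h, it was at 26.8, 23.9 and 35.3 CPM after SE and at 162, 183 and 180 CPM in controls. The groups lay far apart, and the 6.12-fold fall was the largest change of any member at any of the 5 times (log2 fold change -2.61, standard error 0.45, edgeR adjusted p = 0.000147). Kcnip2 was already lower at 6 h, at 48.2, 62.3 and 75.3 CPM against 82.9 to 248 CPM in the 9 controls (log2 fold change -1.30, standard error 0.37, edgeR adjusted p = 0.00877), a call lost with label range as a factor (-1.16, edgeR adjusted p = 0.0608). At 24 h, it was at 38.0, 53.6 and 18.2 CPM, again below every control (log2 fold change -2.05, standard error 0.39, edgeR adjusted p = 0.000308). At 12 h, the SE libraries spread from 29.95 through 49.9 to 116 CPM and overlapped the controls at 128, 82.9 and 248 CPM. The fitted fall there was 2.30-fold (log2 fold change -1.20, standard error 0.42, edgeR adjusted p = 0.0293), and it ranged from -1.94 to -0.67 when single libraries were left out, the calls being lost without Ctr 12 h replicate 3 (-0.67), SE 12 h replicate 1 (-1.05) or SE 12 h replicate 3 (-0.85). It was also lost with label range as a factor (edgeR adjusted p = 0.0539) and with the compared groups only (edgeR adjusted p = 0.173). Ctr 12 h replicate 3, at 248 CPM of Kcnip2, held 239 CPM of CA3 markers, against 64.5 and 64.8 CPM in replicates 1 and 2. Its dentate markers summed to 94.6 CPM, against 49.0 and 33.8 CPM there. The part of such tissue in the 12 h value was not tested. At 72 h, every SE library (80.4, 60.8 and 44.7 CPM) was below every control (136, 176 and 94.9 CPM), but the log2 fold change of -1.11 missed the adjusted threshold (edgeR adjusted p = 0.0584).

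The 36 h SE libraries 1 and 2 carried label numbers from the same range as the 3 Ctr 36 h libraries. Within that range, Kcnip2 was at 26.8 and 23.9 CPM against 162 to 183 CPM, and Kcnd2 at 63.5 and 75.8 against 155 to 191 CPM. Kcnip3 was at 223 and 237 against 96.5 to 100 CPM. Kcnip4 was at 11.4 and 13.8 against 46.2 to 48.9 CPM, and Kcnip1 at 8.45 and 8.98 against 17.6 to 21.03 CPM. These 2 SE libraries held 76.7 and 90.9 CPM of dentate markers, against 13.7 to 20.4 CPM in Ctr 36 h. The parts of label range and of dentate tissue were not tested. The 24 h SE libraries shared their range with no control.

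Kcnip3 encodes KChIP3, which binds Kv4 at the membrane and, as DREAM, binds DNA in the nucleus. The gene lies at 2:127298418-127364014 on the minus strand (GRCm39). At 36 h, it was at 223, 237 and 325 CPM after SE and at 100, 99.4 and 96.5 CPM in controls. All SE libraries stood above the narrow control range, a 2.65-fold rise (log2 fold change 1.41, standard error 0.27, edgeR adjusted p = 0.000411). At 24 h, the libraries were close together at 256, 242 and 278 CPM, above all 9 controls at 83.5 to 172 CPM (log2 fold change 1.14, standard error 0.20, edgeR adjusted p = 0.000153). At 12 h, they were at 260, 356 and 127 CPM against 106, 133 and 83.5 CPM, so the lowest SE library overlapped the highest control (log2 fold change 1.203, standard error 0.26, edgeR adjusted p = 0.00138), and with the compared groups only the call was lost (edgeR adjusted p = 0.0584). The lowest library at 12 h, replicate 3, was also the lowest of its group for Kcnip2 and the highest for Kcnd2. At 6 h, values of 207, 143 and 127 CPM overlapped the controls (log2 fold change 0.44, edgeR adjusted p = 0.105). At 72 h, the SE libraries at 206, 176 and 228 CPM did not overlap the controls at 132, 156 and 172 CPM, but the log2 fold change of 0.41 was not called (edgeR adjusted p = 0.259). The controls were higher at 72 h than at 36 h by 0.63 (edgeR adjusted p = 0.177), and SE 72 h differed from SE 36 h by -0.36 (edgeR adjusted p = 0.412).

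Kcnip4 encodes KChIP4, whose known splice forms include one that holds back surface expression and slows inactivation. At 12 h, it was at 25.8, 13.3 and 9.56 CPM after SE and at 44.7, 43.5 and 49.6 CPM in controls. The groups did not overlap, and Kcnip4 fell 2.88-fold (log2 fold change -1.53, standard error 0.36, edgeR adjusted p = 0.00217), the largest change of any member at 12 h. At 36 h, it was at 11.4, 13.8 and 35.4 CPM against 47.1, 46.2 and 48.9 CPM (log2 fold change -1.26, standard error 0.35, edgeR adjusted p = 0.00974), a call lost without SE 36 h replicate 1 (-0.97) or replicate 2 (-1.05). At 24 h, values of 19.3, 24.7 and 33.0 CPM all lay below the lowest control at 33.7 CPM (log2 fold change -0.85, standard error 0.30, edgeR adjusted p = 0.0294), a call lost without Ctr 72 h replicate 2 (-0.77), SE 24 h replicate 1 (-0.68) or SE 24 h replicate 2 (-0.815), and with all libraries kept also without the RUVr factor (edgeR adjusted p = 0.0506), with label range as a factor (edgeR adjusted p = 0.317) and against Ctr 72 h only (edgeR adjusted p = 0.0922). Among the SE libraries at 12 h and 36 h, the highest Kcnip4 was in those with ganglion marker sums of 667 and 878 CPM, and without the 6 libraries of high ganglion level the log2 fold changes were -1.98 at 12 h and -1.91 at 36 h, both called. At 72 h with all libraries, Kcnip4 was at 52.3, 32.9 and 18.8 CPM against 44.3, 57.5 and 33.7 CPM, and its log2 fold change of -0.40 was not called (edgeR adjusted p = 0.436). The ganglion score with all libraries gave -0.656 there, which missed the fold threshold, and label range as a factor gave 0.34. Leaving out the 6 libraries gave -1.08 with a call, but from SE 72 h replicate 3 alone, the library of that group with the lowest Kcnip4. Kcnip4 shares 226 bp of exon with the antisense gene 5730480H06Rik, so reads there cannot be assigned.

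Kcnip1 encodes KChIP1, a subunit known mainly from interneurons, and was the least abundant member. At 36 h, it was at 8.45, 8.98 and 15.2 CPM after SE and at 17.6, 21.03 and 17.99 CPM in controls. The groups did not overlap, and Kcnip1 fell 1.74-fold (log2 fold change -0.80, standard error 0.24, edgeR adjusted p = 0.0152), a call lost without Ctr 36 h replicate 2 (-0.71), SE 36 h replicate 1 (-0.65) or SE 36 h replicate 2 (-0.68). At 72 h, the log2 fold change of -0.66 rounded to the threshold without reaching it (edgeR adjusted p = 0.0482). Kcnip1 was called there under 5 of 14 alternative settings, among them DESeq2 (-0.67) and limma-voom (-0.73). At 12 h it was -0.51 (edgeR adjusted p = 0.0934), and 2 of 14 settings called it, the ganglion score (-0.68) and thinned counts (-0.84).

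Promoter sequence is given for the 3 KChIP genes that were called most often and for Kcnd2, so that their start regions can be set side by side. The stretches are the 250 bases before the RefSeq transcript start in the GRCm38.p6 build, 5′ to 3′ on the strand of the gene, and for Kcnip3 and Kcnip4, which have several starts there, the first listed. They are chr19:45816064-45816313 on the minus strand for Kcnip2, chr2:127522095-127522344 on the minus strand for Kcnip3, chr5:49285660-49285909 on the minus strand for Kcnip4 and chr6:21215096-21215345 on the plus strand for Kcnd2. Capitals mark matches to the AP-1 motif TGANTCA, to the half-site TGACG of the cAMP response element, or to TGCNCNC, searched on both strands. TGCNCNC took any base at each N and is a looser pattern than the core of the metal response element, so a match need not be such an element.
Kcnip2: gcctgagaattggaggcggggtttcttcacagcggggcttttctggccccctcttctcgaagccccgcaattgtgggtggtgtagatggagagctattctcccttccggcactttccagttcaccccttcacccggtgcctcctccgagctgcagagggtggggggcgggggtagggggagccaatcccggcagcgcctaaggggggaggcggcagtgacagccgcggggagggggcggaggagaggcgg
Kcnip3: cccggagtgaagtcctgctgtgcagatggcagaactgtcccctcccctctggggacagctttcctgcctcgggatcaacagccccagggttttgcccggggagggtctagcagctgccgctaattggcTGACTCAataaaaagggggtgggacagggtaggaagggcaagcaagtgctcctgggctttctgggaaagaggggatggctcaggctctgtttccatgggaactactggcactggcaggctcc
Kcnip4: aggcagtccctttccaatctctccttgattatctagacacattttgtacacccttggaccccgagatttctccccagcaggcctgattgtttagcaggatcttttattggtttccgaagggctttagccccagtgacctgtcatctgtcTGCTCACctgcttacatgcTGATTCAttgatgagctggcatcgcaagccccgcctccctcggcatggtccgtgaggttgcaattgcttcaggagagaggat
Kcnd2: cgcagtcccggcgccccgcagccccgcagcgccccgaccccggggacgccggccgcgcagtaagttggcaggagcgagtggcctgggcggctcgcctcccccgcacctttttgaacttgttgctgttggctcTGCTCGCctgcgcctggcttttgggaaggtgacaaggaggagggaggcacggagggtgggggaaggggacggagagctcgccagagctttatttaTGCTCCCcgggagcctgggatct
The AP-1 match TGACTCA lies 122 to 116 bases before the start of Kcnip3 printed here, and TGATTCA lies 82 to 76 bases before that of Kcnip4. The motif was thus present at a listed start of a gene that rose and of a gene that fell. Kcnip3 has 3 listed starts and Kcnip4 has 2, and which of them were used was not tested. In windows of this length, 6.75% of 32851 mouse promoters hold the AP-1 motif, 17.8% the half-site TGACG and 44.4% the pattern TGCNCNC. Of the 15 starts listed for 8 of the 9 members, 2 held the AP-1 motif, 0 the half-site and 5 the pattern TGCNCNC. None of these motifs occurred in the Kcnip2 window, and no matches overlapped each other. No start was listed for Kcnd1.

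Of the DPP-like subunits, Dpp6 encodes the partner that predominates in CA1 pyramidal dendrites. It was at 387, 362 and 395 CPM at 36 h after SE and at 501, 500 and 484 CPM in controls, without overlap. The difference was small (log2 fold change -0.38, standard error 0.13, edgeR adjusted p = 0.029), and at 6, 12 and 72 h it was -0.38, -0.44 and -0.37 with adjusted p of 0.00736, 0.01 and 0.0353 by edgeR, each under the fold threshold. At 24 h it was -0.11 (95% interval -0.33 to 0.11). Dpp10, which encodes a closely related partner, was at 25.9, 69.5 and 27.2 CPM at 24 h against 51.4 to 145 CPM in the 9 controls. It was called lower there (log2 fold change -0.97, standard error 0.33, edgeR adjusted p = 0.0228), but not without SE 24 h replicate 1 or replicate 3 (-0.74 each). At 36 h, the values of 33.9, 23.02 and 47.5 CPM did not overlap the controls at 70.9, 65.7 and 69.7 CPM (log2 fold change -0.98, edgeR adjusted p = 0.056). At 72 h, 43.2, 45.5 and 41.9 CPM stood against 76.7, 95.8 and 80.6 CPM (log2 fold change -0.94, edgeR adjusted p = 0.0749). Dpp10 was therefore below every control at 36 and 72 h without passing the adjusted threshold, and DESeq2 called it at both times.

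The make-up of the KChIP pool differed between SE and control while its sum overlapped at matched times. Summed over the 4 KChIPs, the level was 79.7 ± 15.9 RPKM in Ctr 12 h, 82.9 ± 2.80 in Ctr 36 h and 86.5 ± 12.9 in Ctr 72 h (SD, n = 3), and after SE, in order of time, 66.6 ± 6.21, 83.3 ± 39.6, 81.7 ± 2.28, 78.2 ± 18.9 and 76.6 ± 9.23 RPKM. No sum at 12, 36 or 72 h stood apart from its control. The share of Kcnip2 in the sum was 45.8% ± 16.6, 52.6% ± 1.73 and 38.5% ± 6.80 in the 3 control groups and 23.5% ± 6.58, 18.6% ± 4.68, 11.2% ± 5.52, 9.20% ± 0.859 and 20.0% ± 4.32 after SE (SD, n = 3). The share of Kcnip3 was 35.0% ± 13.6, 29.3% ± 1.37 and 44.3% ± 9.44 in controls and 58.2% ± 10.4, 73.4% ± 1.59, 77.9% ± 4.29, 82.7% ± 2.47 and 65.6% ± 9.22 after SE. The lowest SE library held 48.5% Kcnip3 and the highest control 55.2%. At 12, 24, 36 and 72 h, every SE library was above every control. The ratio of Kcnip3 to Kcnip2 was 0.558 ± 0.0451 in Ctr 36 h and 9.03 ± 0.793 at SE 36 h, and its highest single value was 15.04 in an SE 24 h library. At 72 h after SE it was 3.48 ± 1.36 against 1.21 ± 0.508 in controls, with ranges of 2.53 to 5.04 and 0.877 to 1.80.

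**Figure D4:**
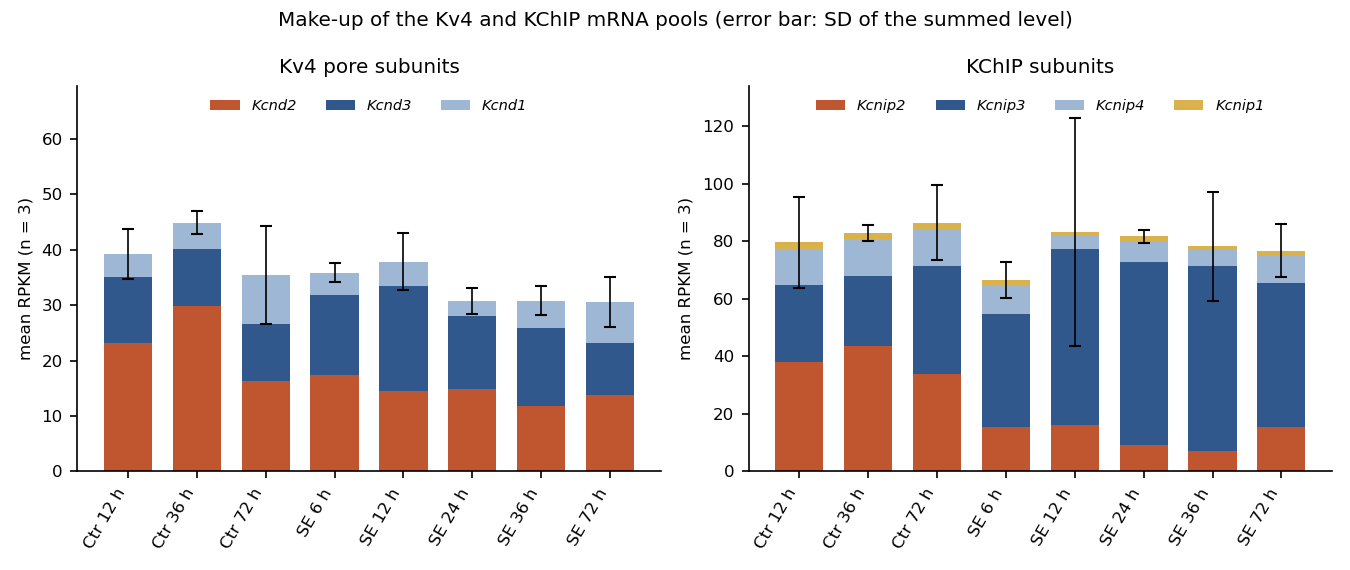
Mean RPKM (vertical axes, n = 3) of the Kv4 pore subunits (left) and of the KChIPs (right), stacked by gene for each group along the horizontal axis, with the SD of the summed level. The group means of the KChIP sum lie between 66.6 and 86.5 RPKM, while single libraries at SE 12 h range from 42.7 to 122 RPKM. Mean Kcnip2 is lower and mean Kcnip3 higher in every SE group than in every control group.

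**Figure D5:**
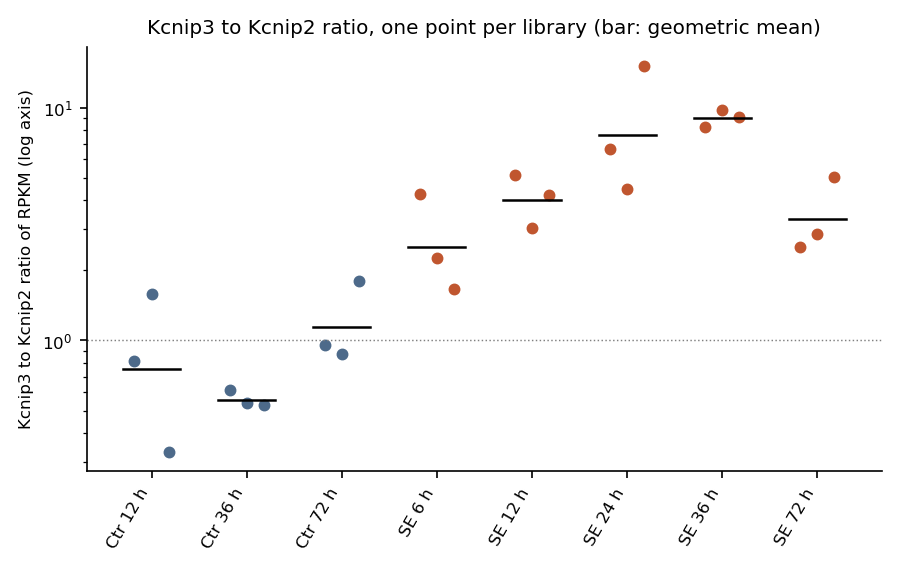
Ratio of Kcnip3 to Kcnip2 in RPKM (vertical axis, log scale) in each library, by group along the horizontal axis, blue for controls and orange for SE, with bars at the geometric mean and a dotted line at 1. Control libraries range from 0.332 to 1.80 and SE libraries from 1.66 to 15.04.

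Among the pore subunits, Kcnd2 made up 66.4% ± 3.88 of the Kv4 sum in Ctr 36 h and 38.4% ± 3.43 at SE 36 h, and 58.9% ± 3.83 in Ctr 12 h and 38.4% ± 8.68 at SE 12 h (SD, n = 3). At 72 h the shares were 48.3% ± 16.6 in controls and 46.1% ± 9.07 after SE. The ganglion-high Ctr 72 h replicate 2 was at 29.55% and the other controls at 61.1% and 54.4%. SE 72 h replicates 1 and 2 were also ganglion-high, at 35.7% and 50.1%, and replicate 3 was at 52.5%. With all libraries the groups overlapped. The Kv4 sum itself was 44.9 ± 2.11 RPKM in Ctr 36 h and 30.8 ± 2.58 at SE 36 h, without overlap, and 39.2 ± 4.51 against 37.8 ± 5.15 RPKM at 12 h, where the rise of Kcnd3 stood beside the fall of Kcnd2. KChIP to Kv4 ratios were 1.85 ± 0.109 in Ctr 36 h and 2.53 ± 0.465 at SE 36 h, and these depended on the exon length used, being 2.34 and 3.04 with the longest transcript. At 12 h the ratios were 2.02 ± 0.207 in controls and 2.28 ± 1.32 after SE. At 72 h they were 2.49 ± 0.34 and 2.52 ± 0.185, and the groups overlapped at both times.

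Between consecutive SE times, 0 members passed edgeR's adjusted threshold at a log2 fold change of at least 1, where 1.34% of all genes were called from 6 to 12 h, 3.18% from 12 to 24 h, 0.529% from 24 to 36 h and 4.13% from 36 to 72 h. At an unadjusted p under 0.05 there were 3, 2, 1 and 4 members, and DESeq2 and limma-voom each called 1 from 6 to 12 h and 0 at the later steps. That member was Kcnip4, with -1.20 by edgeR (adjusted p = 0.0561). Kcnd3 passed the adjusted p but not the fold threshold, with -0.53 from 12 to 24 h (edgeR adjusted p = 0.023) and -0.58 from 36 to 72 h (edgeR adjusted p = 0.0118). Kcnip2 differed by 1.105 from 36 to 72 h (edgeR adjusted p = 0.111). The SE effect on Kcnip2 differed by 1.51 between 72 and 36 h (95% interval 0.25 to 2.76, edgeR adjusted p = 0.144) and that on Kcnip3 by -0.99 (-1.77 to -0.22, edgeR adjusted p = 0.121), neither of which was called. With the compared groups only, both were called, Kcnip2 at 1.47 (edgeR adjusted p = 0.0108) and Kcnip3 at -1.03 (edgeR adjusted p = 0.0155). Between 36 and 12 h, 0 members differed in their SE effect by edgeR, DESeq2 or limma-voom, against 3.38% of all genes by edgeR, with 2 members at an unadjusted p under 0.05. When SE 72 h was compared with the mean of the 3 control groups, an alternative added after seeing the data, 4 members were called: Kcnip3 higher (0.79), and Kcnip2 (-1.31), Dpp10 (-0.89) and Kcnd2 (-0.71) lower.

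Other proteins known to bind or modify Kv4 channels were taken from a list of 18 genes, of which 17 passed the filter and Kcne2 did not. Of the 17, 3 rose and 1 fell at 6 h, 2 rose and 5 fell at 12 h, 2 rose and 5 fell at 24 h, 2 rose and 6 fell at 36 h, and 2 rose and 1 fell at 72 h. These counts stand beside 22%, 25.2%, 24.1%, 21.6% and 19.4% of all genes called, and the counts at 6 and 72 h are near those shares. Their median log2 fold change was -0.24, -0.26, -0.26, -0.55 and -0.39 at those times, beside 0.06, 0.01, 0.04, 0.00 and 0.10 for all genes. Flna, which encodes filamin A, an actin cross-linker that anchors Kv4.2, rose at all 5 times, by 1.72 at 12 h (standard error 0.25, edgeR adjusted p = 2.97e-05) and 1.53 at 36 h. The 3 markers of vascular cells summed to 204 to 296 CPM at 12 h after SE, against 124 to 145 CPM in controls. At 36 h they were at 197 to 276 against 118 to 146 CPM. Microglia markers were at 136 to 153 against 240 to 251 CPM at 12 h, and at 302 to 349 against 252 to 294 CPM at 36 h. The part of these cells in the rise of Flna was not tested. Camk2a, a kinase that phosphorylates Kv4.2, fell at 12, 24, 36 and 72 h, by 1.79 on the log2 scale at 36 h (standard error 0.20, edgeR adjusted p = 1.37e-06). Akap5, the anchor that brings kinases and phosphatases to Kv4.2, fell by 1.75 at 12 h and by 2.15 at 36 h. Kcnab2, a cytoplasmic beta subunit, fell by 0.99 at 12 h and by 1.21 at 36 h. Dlg1, the scaffold SAP97, rose by 0.78 at 12 h and by 1.27 at 6 h.

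Among other genes for channels with A-type current, Kcna4 (Kv1.4) rose at 6, 12 and 24 h, by 1.17, 1.02 and 1.03 on the log2 scale. Its values at 36 and 72 h were 0.27 and -0.55 and were not called. Kcnc4 (Kv3.4) rose at 6 h by 0.78. Of 3 genes known as targets of DREAM, Pdyn, which encodes prodynorphin, rose at all 5 times by 2.92 to 3.55, Fos rose by 3.298, 3.33 and 3.65 at 6, 12 and 24 h, and Slc8a3, a sodium-calcium exchanger, rose by 0.89 at 6 h. Pdyn is also strongly expressed by dentate granule cells, whose 4 markers had a median log2 fold change of 1.93 at 36 h, with 0 called by edgeR and 2 at an unadjusted p under 0.05, and of 3.51 at 72 h, with 3 called higher. The part of these cells in the rise of Pdyn was not tested. At 36 h, where the fitted rise of Kcnip3 was largest, Pdyn was 2.92 higher (edgeR adjusted p = 0.00413) and Fos had a value of 0.88 (edgeR adjusted p = 0.28).

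Over the 24 libraries and among 13726 other genes whose log2 CPM averaged 1 or more, the levels most like those of Kcnip2 were those of Cpne6 (Pearson r = 0.951), Ypel1 (0.924), Gpr12 (0.914), Gatd3a (0.912) and Pcdh19 (0.911). For Kcnd2 they were Adcy2 (0.905), Snph (0.895), Kalrn (0.884), Elmod1 (0.883) and Cdip1 (0.874). These coefficients describe libraries that fall into control and SE groups and share depth and dissection.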

How the data were processed

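Counts per gene in 24 mouse CA1 libraries were analysed. Per the labels and the methods of the study, the authors trimmed reads with Trim Galore 0.6.6, aligned them with STAR 2.7.8a to GRCm39, counted read pairs per GENCODE M26 gene with htseq-count (HTSeq 0.13.5, without strand) and deposited raw counts. Positions and exon lengths came from a later GENCODE release on GRCm39. Of 18647 genes, 18552 were matched to symbols and 95 were not. In R 4.3.3, edgeR 4.0.16 with TMM scaling and filterByExpr fitted 8 group terms and 1 RUVr factor to all libraries, and its quasi-likelihood test was adjusted over 18153 genes. The RUVr factor, estimated from residuals, was 0.80 in the ganglion-high Ctr 72 h replicate 2. It was -0.38 and -0.37 in Ctr 72 h replicates 1 and 3, and between -0.098 and 0.14 in all other libraries. The factor thus mostly followed the spread within Ctr 72 h. A call needed an adjusted p up to 0.05 and a log2 fold change of 0.66 or more in either direction, or of 1 between SE times. Scripts were tested on simulated data. Members and lists were chosen with earlier results of these data known. All members were named, and in a longer list up to 6 genes called most often, with ties by adjusted p at 12 h, and the 5 most alike for Kcnd2 and Kcnip2. Alternatives were DESeq2 1.42.0, limma-voom (limma 3.58.1), other scalings, filters, thresholds and factors, thinned counts and left-out libraries. Added after seeing the data were the omission of 6 libraries with ganglion markers above 300 CPM and the mean of 3 control groups as reference. Depth limits the lowest members most: the fewest counts were 40, for Kcnip1. Unstranded counting leaves genes with antisense overlap uncertain. Values of some listed genes are left out.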

Additional observations from a re-analysis of the deposited data

Results flagged for a closer look

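The SE effect differed between times for 2 members by the test of the difference itself. For Kcnd2 the log2 fold change of SE against control was 1.09 higher at 72 h than at 36 h (edgeR adjusted p = 0.0163), with all 3 SE libraries below all 3 controls at 36 h and overlapping groups at 72 h. Between these times the SE groups differed by 0.23 (edgeR adjusted p = 0.454) and the control groups by -0.87 (edgeR adjusted p = 0.0176). With label range as a factor the difference in SE effect was not called (1.35, edgeR adjusted p = 0.0641). For Kcnd3 the effect at 72 h minus that at 12 h was -0.78 (edgeR adjusted p = 0.00895), with all 3 SE libraries above all 3 controls at 12 h and overlapping groups at 72 h. It was not called with label range as a factor (-0.89, edgeR adjusted p = 0.0693). Leaving out the 6 libraries of high ganglion level, which leaves 1 SE library at 72 h, gave 0.95 for Kcnd2 and -0.59 for Kcnd3. Groups of 3 libraries were too small for the test of single outlying libraries.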

How the results depend on the processing

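Under every alternative run that kept all libraries, the number of members called at 36 h was within 1.5 times of 5. At 12 h, the 5 members called became 2 with the compared groups only and 3 at a log2 fold change of 1. With the ganglion score their number at 12 h stayed at 5, but Kcnd1 and Kcnip1 were called and Kcnd2 and Kcnd3 were not. At 72 h, where 0 were called, DESeq2, the compared groups only and no fold threshold gave 2 each, limma-voom, DESeq2 size factors, a ganglion score in place of RUVr, thinned counts and the omission of 6 ganglion-high libraries gave 1 each, and the mean of 3 control groups gave 4. At 6 h, 1 became 0 with label range as a factor and 3 without fold threshold. At 24 h, 5 became 3 without RUVr and with label range, and 2 at a log2 fold change of 1. Between SE times, 0 became 1 from 6 to 12 h with DESeq2, limma-voom, at least 10 counts in every library, the ganglion score, thinned counts and without ganglion-high libraries, 1 from 12 to 24 h without those libraries or without fold threshold, 1 from 24 to 36 h without those libraries, and 1 from 36 to 72 h without fold threshold. For the SE effect at 72 against 12 h, 1 became 0 with label range, without ganglion-high libraries and at a log2 fold change of 1, and 2 with the ganglion score. At 72 against 36 h, 1 became 0 with label range and without ganglion-high libraries, and 3 with the compared groups only. For Ctr 72 h against Ctr 36 h, 1 became 0 with limma-voom, label range, the ganglion score, without ganglion-high libraries and at a log2 fold change of 1. The causes were not tested, beyond fewer samples where libraries were left out. Without the 6 ganglion-high libraries SE 72 h held 1 library, assumed to vary like the other groups.

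With single libraries left out, counts ranged from 3 to 6 both at 12 h and at 36 h. They ranged from 0 to 1 at 72 h, from 2 to 5 at 24 h, and stayed at 1 at 6 h. Between SE times they ranged from 0 to 1 (6 to 12 h), 0 to 0 (12 to 24 h and 24 to 36 h) and 0 to 1 (36 to 72 h). For the SE effect they ranged from 0 to 1 (36 against 12 h), 0 to 2 (72 against 12 h) and 1 to 2 (72 against 36 h), and between controls from 0 to 0 (36 against 12 h), 0 to 1 (72 against 36 h) and 0 to 1 (72 against 12 h).

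Values that changed sign were all uncalled in both fits. Kcnd1 became 0.0412 at 12 h and 0.0597 at 36 h without RUVr, 0.0841 at 36 h with library size only, 0.0512 with at least 10 counts in every library and 0.24 with thinned counts. At 72 h it became -0.27 without RUVr, -0.37 with the ganglion score and -0.20 without ganglion-high libraries. Kcnip4 at 72 h (0.34) and Dpp6 at 24 h (0.0247) changed sign with label range, and Kcnd3 at 72 h (0.0564) without ganglion-high libraries. With single libraries left out, the range of Kcnd1 was -0.83 to 0.25 (12 h), -0.71 to 0.30 (36 h) and -0.34 to 0.78 (72 h), with Kcnd2 at 72 h from -0.41 to 0.0055 and Kcnd3 at 72 h from -0.28 to 0.10.

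A fit with a replicate block called 5 members at 12 h, 5 members at 36 h and 0 members at 72 h, the same numbers as without it. Same-numbered libraries correlated by -0.201 to 0.181 in their deviations, not every pair above 0.1, so the numbers were not taken as pairs. The smallest library, with 2663936 counts, limits the least abundant members most.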
